A study of Mus musculus with 6 samples.

Results

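The cells described here are lymphocytes of the aged mouse lung that carried transcripts of Il23r, the interleukin 23 receptor subunit, and of Icos, an inducible costimulatory receptor, but none of the interleukin 17 genes Il17a and Il17f. They were chosen by counts of unique molecular identifiers (UMIs, each standing for 1 captured transcript). A barcode had to reach 500 genes and 1000 UMIs without exceeding 15% mitochondrial UMIs. It also needed at least 1 UMI each of Ptprc, Il23r and Icos, and 0 UMIs of Il17a, Il17f, Trdc, Foxp3 and Cd79a. The gate held 1008 cells, out of 32913 Ptprc-positive cells and 88616 cells that passed the cell filter. The 8 gate genes therefore describe the choice and are not results. At the edge of the gate, 6.37% to 15.4% of the gated cells in a library held exactly 1 UMI of Il23r, and 2.26% to 6.77% of otherwise eligible cells fell outside it with exactly 1 interleukin 17 UMI.

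The lungs came from 6 male C57BL/6 mice aged 21 months, with 1 single-cell library for each mouse. The 3 mice labelled p16-DTR had the genotype p16-CreERT2/R26-LSL-DTR, in which a Cre recombinase driven by p16 opens a diphtheria toxin receptor at the Rosa26 locus, and the 3 control mice carried p16-CreERT2 alone. Both groups received tamoxifen for 5 days and, 2 weeks later, diphtheria toxin for 5 days, followed by 2 weeks of recovery, so that the controls share the Cre allele, tamoxifen and toxin. Each library mixed 20000 CD45-negative and 9000 CD45-positive sorted cells, which fixes the share of blood-lineage cells that went in. By its design, the comparison between groups asks what removal of cells with high p16 expression leaves behind in the lung. Whether such cells were removed was not tested here.

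Interleukin 23 acts through a receptor made of Il23r and Il12rb1 and signals through Jak2, Tyk2 and Stat3. In lymphocytes it sustains the type 17 programme, which is best known for interleukin 17 secretion at barrier surfaces such as the lung. Cells with this receptor are found among CD4 T cells, gamma-delta T cells, innate-like T cells that express Zbtb16, and type 3 innate lymphoid cells.

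The libraries held 13482 to 17332 barcodes and 254200305 to 344421685 UMIs. The cells described had a median of 16017 UMIs, with library medians from 15372 to 17142. Any pair of libraries shared 59 to 94 barcodes (0.392% to 0.586% of the smaller library), and 0 barcodes of the gated cells were shared. Predicted doublets, barcodes that resemble a mixture of cells, made up 6.29% to 15.3% of the gated cells by library and were kept. Cdkn2a, the p16 gene that drives the Cre, went against the direction of the label in these cells: it averaged 12.02 ± 1.06 CPM (UMI counts scaled to a total of 1000000) in the p16-DTR-labelled libraries and 2.77 ± 3.30 CPM in controls (SD, n = 3 each), a log2 difference of 2.23 ± 0.84 (SE) that was not called (edgeR, adjusted p = 0.485). Cdkn2a UMIs were found in 16%, 14.8% and 12.4% of the gated cells in the p16-DTR-labelled libraries and in 0%, 3.57% and 3.50% in controls. B cells showed a split in the same direction, at 12.95 ± 1.85 against 0.805 ± 0.485 CPM, so it was also present outside the gated cells. The groups are called by their labels throughout.

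The gated cells were T cells by their transcripts. Cd3e, a chain of the T cell receptor complex, was detected in 94.3% of them. The B cells used as background were defined without Cd3e, so for that gene they give no comparison. Trac, the alpha chain constant region, was detected in 89.98% (B cells 2.35%) and Trbc2, a beta chain constant region, in 95.3% (B cells 2.40%). Cd40lg, the CD40 ligand and the marker given for these cells besides the gate genes, was detected in 84.3% (B cells 0.104%). Median depth was 14431 UMIs in those B cells, close to that of the gated cells.

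In most of these cells no coreceptor UMI was detected. Of the 1008 cells, 754 had a UMI of the receptor complex genes but none of Cd4, Cd8a or Cd8b1, 146 had Cd4 without Cd8a or Cd8b1, 85 had Cd8a or Cd8b1 without Cd4, 8 had both, and 15 had none of these genes. The last 15 had a median of 2366 UMIs, so that missing transcripts were not distinguishable from low depth. The 754 cells also rest on counts of 0, and some may carry a coreceptor below detection: in cells of the Cd8 class, Cd8b1 was detected in 98.8% and, thinned to 5000 UMIs, in 47.5%, and in those of the Cd4 class Cd4 was detected in 82.1% after thinning. Zbtb16, the transcription factor of innate-like T cells, was detected in 85.9% (B cells 20.2%), and Il17rb, the receptor for interleukin 25, in 45.9% (B cells 0.626%). Gata3, a factor of T cell and type 2 lineages, was detected in 67.6% (B cells 2.05%), and Tcrg-C1, a constant region of the gamma receptor locus whose reads may be split with its near-identical neighbours, in 65.8% (B cells 0.295%). Il23r itself stood at 579 to 728 CPM by library, with a median of 8 to 11 UMIs per cell.

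Rearranged receptor chains gave a further readout that the gate did not use. Trav1 and Trav11 are the alpha chain V segments known from the receptors of mucosal-associated invariant T cells and of invariant natural killer T cells, and their germline 3′ ends are shown because the data count transcripts of these segments. The last 90 bases of each annotated transcript are printed 5′ to 3′, with the last in-frame cysteine codon, near the end of the V segment, in capitals.
Trav1: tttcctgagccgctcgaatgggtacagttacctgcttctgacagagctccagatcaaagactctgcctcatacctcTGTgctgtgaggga
Trav11: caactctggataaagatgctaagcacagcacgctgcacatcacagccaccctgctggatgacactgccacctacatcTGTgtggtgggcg
In GENCODE M21 (GRCm38, plus strand) Trav1 lies at chr14:52427928-52428876 and Trav11 at chr14:53519303-53519859.

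Trav1 was detected in 49 of the 1008 gated cells (4.86%), in 2.80% to 6.78% of them by library, against 15 of 4055 Il23r-negative cells (0.370%). Trav11 was detected in 27 gated cells (2.68%) and in 23 Il23r-negative cells (0.567%). Both were at 0 in the 439 cells that carried Trdc, which allows up to 0.683%, and in the 146 gated cells with Cd4, which allows up to 2.05%. Among the 754 cells with the receptor complex only, Trav1 was found in 46 and Trav11 in 25. In otherwise eligible cells with an interleukin 17 UMI, Trav1 was detected while Trav11 was at 0. The libraries read transcript 3′ ends, far from the V segment, so these shares count detected segments and not how often the segments were used. Zbtb16 UMIs were also found in 31 of 43, 21 of 22 and 15 of 18 interleukin 17-positive cells in the p16-DTR-labelled libraries. In controls they were found in 50 of 99, 37 of 110 and 44 of 108.

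**Figure D1:**
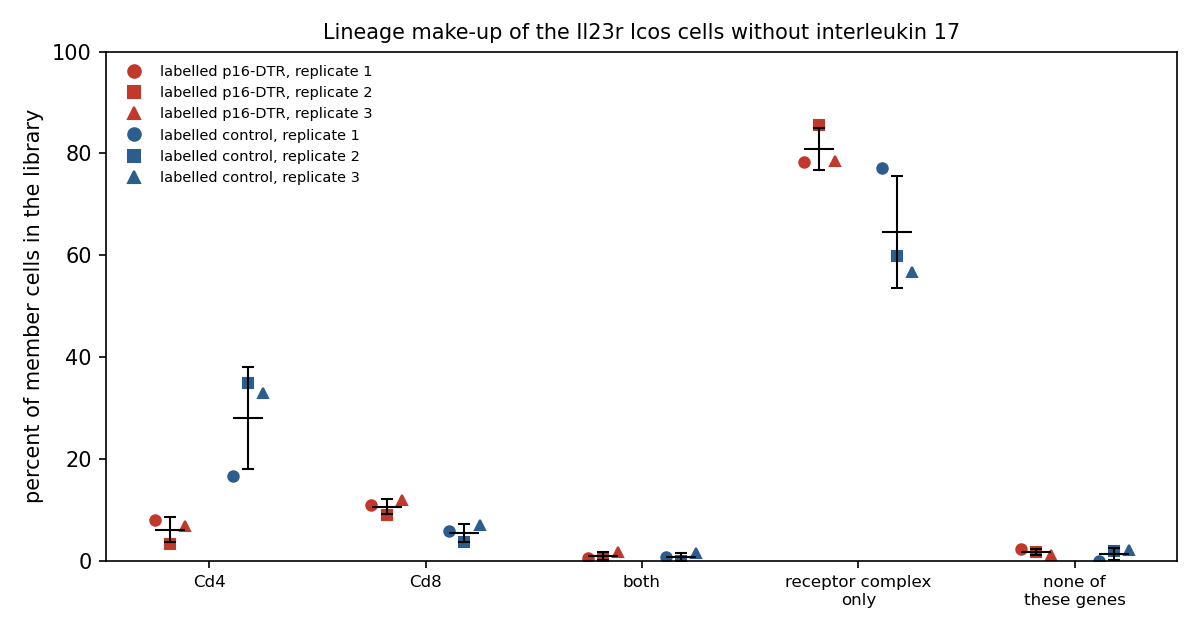
Percent of the gated cells (vertical axis) in each coreceptor class (horizontal axis), 1 point per library, with the mean and SD of 3 libraries in black. Cells with Cd4 lie between 3.28% and 8% in the p16-DTR-labelled libraries and between 16.6% and 34.8% in controls.

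The coreceptor make-up of the cells differed between the groups, mainly in its Cd4 part. Cells with Cd4 made up 8%, 3.28% and 6.78% of the gated cells in the p16-DTR-labelled libraries and 16.6%, 34.8% and 32.9% in controls, so the groups did not overlap (6.02% ± 2.45 against 28.1% ± 10.0, SD, n = 3 each; exact two-sided permutation p = 0.1, adjusted p = 0.167 over 5 classes). With 3 libraries against 3, 0.1 is the smallest p that this test can give. Cells with the receptor complex only made up 78.3%, 85.7% and 78.5% against 77.1%, 59.8% and 56.6% (exact permutation p = 0.1, adjusted p = 0.167), where control replicate 1 lay just under the lowest library labelled p16-DTR. Cells with Cd8a or Cd8b1 averaged 10.6% ± 1.44 against 5.43% ± 1.73 (SD over 3 libraries; p = 0.1 by exact permutation and 0.167 after adjustment). With each cell thinned to 3000 UMIs, that last difference shrank from 5.15 to 1.06 percentage points, and at 5000 UMIs to 0.862 points. The groups then overlapped. Thinning also lowered Cd8b1 detection, and the gate was applied again to the thinned counts. Whether depth gave the difference between the groups was therefore not tested.

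As a share of Ptprc-positive cells, the gated cells did not differ between the groups beyond the spread of the libraries. They made up 3.21%, 4.04% and 2.63% in the p16-DTR-labelled libraries and 3.11%, 2.71% and 2.60% in controls, and the ranges overlapped (3.29% ± 0.711 against 2.81% ± 0.269, SD, n = 3 each; exact permutation p = 0.3). Thinned to 3000 UMIs, which left out 172 to 295 shallower Ptprc-positive cells per library, the difference was 0.0549 percentage points in place of 0.487. The gate was applied again after thinning, so cells that lost their interleukin 17 UMIs could enter it. Otherwise eligible cells with an interleukin 17 UMI made up 0.789%, 0.364% and 0.267% of Ptprc-positive cells in the p16-DTR-labelled libraries. In controls they made up 1.96%, 2.66% and 1.96%, so the thinned difference does not compare the same cells at equal depth. The reading depended on the denominator. Of all cells that passed the cell filter, the gated cells were 175 of 14326, 244 of 14724 and 177 of 14965 in the p16-DTR-labelled libraries. In controls they were 157 of 16426, 112 of 12667 and 143 of 15508, and those shares did not overlap between the groups. Of the same totals, all Ptprc-positive cells were 5452, 6037 and 6740 in the p16-DTR-labelled libraries and 5048, 4137 and 5499 in controls. Their shares did not overlap either, so the difference over all cells is not particular to the gated cells. Shares of this kind follow the CD45 sort, and fewer cells of a type cannot be told apart from more cells of the others.

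**Figure D2:**
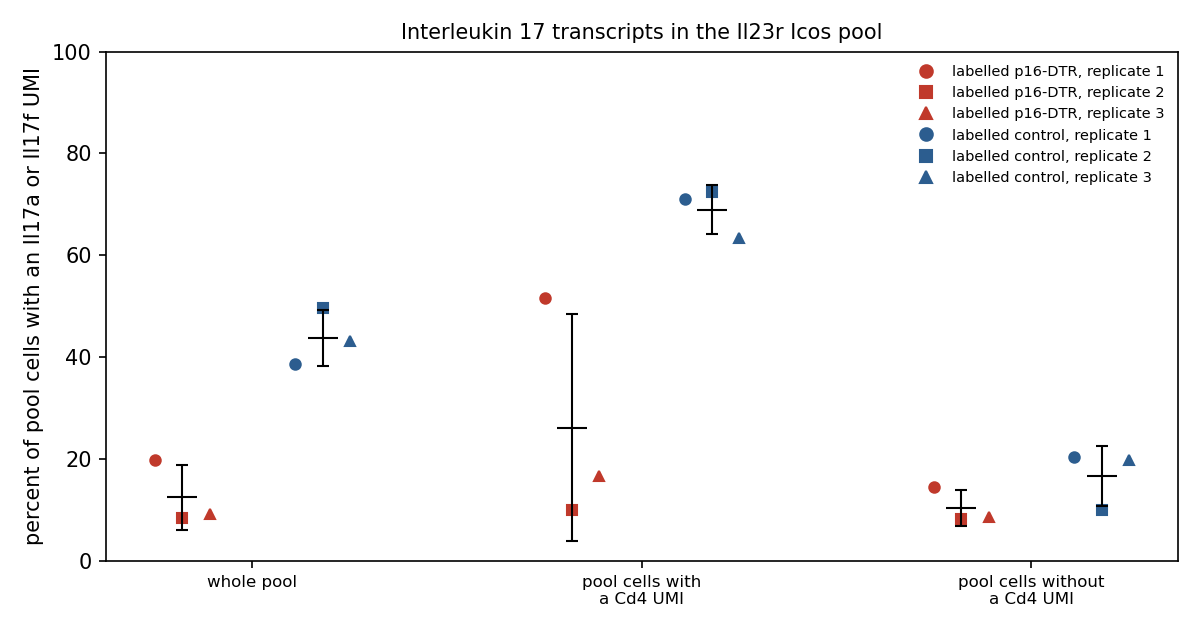
Percent of cells with an Il17a or Il17f UMI (vertical axis) among all cells that met every other condition of the gate, and among those with and without a Cd4 UMI (horizontal axis), 1 point per library, with the mean and SD of 3 libraries in black. The groups are apart in the whole pool and overlap among cells without Cd4.

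The gate splits a larger pool of Il23r Icos cells by the presence of interleukin 17 transcripts, and that split differed between the groups. Interleukin 17 UMIs were present in 19.7%, 8.27% and 9.23% of the pool in the p16-DTR-labelled libraries and in 38.7%, 49.5% and 43.0% in controls, with no overlap (12.4% ± 6.35 against 43.7% ± 5.47, SD, n = 3 each). The gate uses the interleukin 17 genes, so these shares are a description without a test. In the pool cells with Cd4 the shares were 51.6%, 10.0% and 16.7% against 71.0%, 72.3% and 63.4%. The 2 lowest of these rest on 10 and 18 cells. In the pool cells without Cd4 they were 14.4%, 8.20% and 8.47% against 20.2%, 9.88% and 19.7%, and the groups overlapped. Cells with Cd4 were also a smaller part of the pool itself, 9.07% against 51.1% on average.

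Beside the cells with interleukin 17, the gated cells were lower in Tnfsf11 and Ccr6, surface molecules of the type 17 programme. The counterpart was the 400 cells that met the same gate except for at least 1 UMI of Il17a or Il17f, summed per library and compared within each mouse. Of 10624 genes tested, 57 were called (0.537%), 15 higher (0.141%) and 42 lower (0.395%) in the gated cells. The count depended on the processing and was 268 with DESeq2, 256 without predicted doublets, 234 without cells of other lineages and 202 without the count filter. Tnfsf11, which encodes the cytokine RANKL, was lower by 1.35 ± 0.09 on the log2 scale (147 ± 53.5 against 377 ± 173 CPM, lower in 6 of 6 libraries; edgeR, adjusted p = 0.000301). Ccr6, the chemokine receptor of type 17 cells, stood at 71.3 ± 20.1 against 138 ± 35.1 CPM and was also lower in 6 of 6 libraries (edgeR, adjusted p = 0.0166). Of the 24 tested genes of the type 17 list, 0 were called higher and 3 lower: Ccr6, Tnfsf11 and Furin, which encodes a protein convertase.

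The other genes lower in the gated cells included Ccr4, a chemokine receptor, at 35.3 ± 14.7 against 73.8 ± 17.7 CPM, Slamf1, a signalling receptor, at 58.9 ± 11.7 against 113 ± 30.6 CPM, and Cish, a feedback inhibitor of cytokine signalling, at 165 ± 16.5 against 270 ± 24.1 CPM (SD, n = 6 libraries). The immediate early genes Junb and Jund were lower by 0.34 ± 0.05 and 0.46 ± 0.07 on the log2 scale, 2 of 18 tested genes of that list. Higher in the gated cells were Lef1, a transcription factor of resting T cells, at 127 ± 26.0 against 61.1 ± 16.6 CPM, Fasl, the death ligand, at 48.3 ± 6.24 against 25.1 ± 7.46 CPM, Cd226, an activating receptor, and Serpina3g, a protease inhibitor. Lef1 was the only called gene of 10 tested in the naive and recirculating list, whose median log2 difference was -0.007. Fasl was the only one of 9 in the type 1 list (median 1.62). Ccr4 was the only one of 8 in the type 2 list, and Slamf1 of 6 in the unconventional alpha-beta T cell list. Over all libraries, cells with Cd4 made up 15.3% of the gated cells and 68.2% of the counterpart. In the counterpart that share was 37.2%, 4.55% and 16.7% in the p16-DTR-labelled libraries and 66.7%, 92.7% and 78.7% in controls, so the imbalance was small in p16-DTR replicate 2. With cells with Cd4 left out, 20 genes were called, 10 of them shared with the 57. The counterpart sums then rested on only 27, 21 and 15 cells in the p16-DTR-labelled libraries and on 33, 8 and 23 in controls. Tnfsf11, Furin, Cish and Nmrk1 were among the calls kept. Ccr6 missed the threshold at a log2 difference of -1.04 (edgeR, adjusted p = 0.0520), and so did Ccr4, Slamf1, Junb, Jund, Lef1, Fasl, Cd226 and Serpina3g, each with the same sign and with edgeR adjusted p from 0.0520 for Cd226 to 0.629 for Ccr4. Several of these differences kept most of their size: Fasl was at 0.97 on the log2 scale in place of 0.94, Lef1 at 0.90 in place of 1.04, Cd226 at 0.61 in place of 0.71 and Jund at -0.37 in place of -0.46, while Ccr4 was at -0.58 in place of -1.12. Of the antigen-presenting and myeloid genes, H2-Aa was then higher in the gated cells by 3.22 (edgeR, adjusted p = 0.0260), while Cd74 at 3.20 (adjusted p = 0.0656) and S100a9 at 2.96 (adjusted p = 0.199) were not called. Single libraries moved the count: leaving out p16-DTR replicate 1 gave 4, and it was 4 without control replicate 1, 5 without control replicate 2, 18 without control replicate 3 and 190 without p16-DTR replicate 2.

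**Figure D3:**
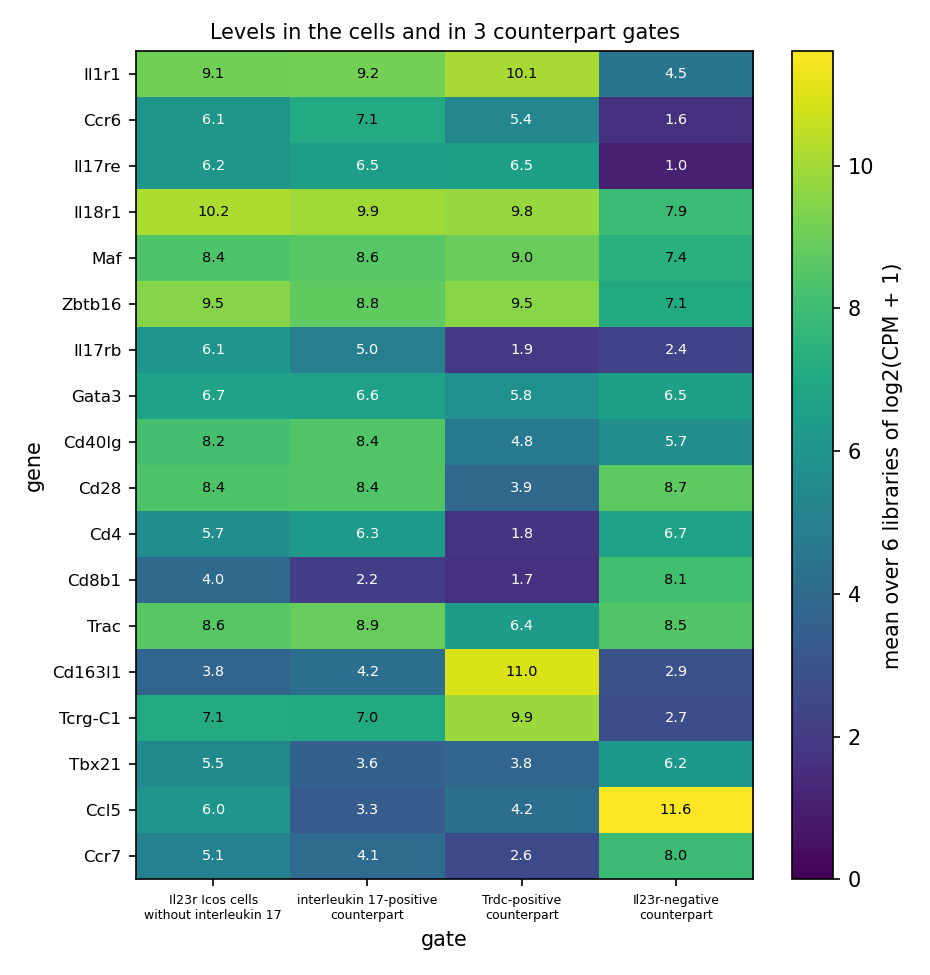
Mean over 6 libraries of log2(CPM + 1) for 18 genes (rows) in the gated cells and in the counterpart gates (columns), printed in each cell of the map. Il1r1 stands at 9.1 in the gated cells, at 9.2 in the interleukin 17-positive cells, at 10.1 in the Trdc-positive cells and at 4.5 in the Il23r-negative cells.

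Against cells of the same gate without Il23r, the gated cells were higher in most tested genes of the type 17 list. Both gates lack interleukin 17 transcripts by their rule and differ in it only by Il23r, itself a gene of type 17 cells. Of 12653 genes tested, 4251 were called (33.6%), 2181 higher (17.2%) and 2070 lower (16.4%) in the gated cells. In the type 17 list 20 of 24 tested genes were higher and 2 lower, with a median log2 difference of 2.54 beside -0.02 over all genes tested. Il1r1, the interleukin 1 receptor, was 561 ± 58.8 against 22.7 ± 7.50 CPM (log2 difference 4.71 ± 0.15; edgeR, adjusted p = 3.63e-07), and Il17re, a receptor subunit for interleukin 17 family cytokines, 70.6 ± 5.02 against 1.12 ± 0.634 CPM. Il21, a cytokine, and Hif1a, a transcription factor of the hypoxia response, were the 2 lower genes of the list. Of 12 tested genes of interleukin 23 receptor signalling, 3 were higher, among them the receptor subunit gene Il12rb1, and 4 lower: Jak2, Stat3, Stat4 and Socs3. Jak2 turned to a log2 difference of 0.11 in cells without Cd4.

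Most genes of the tissue residency list were higher as well, while the lists of innate-like and innate lymphocytes were split. Zbtb16 was 734 ± 126 against 137 ± 34.9 CPM, Il17rb 68.8 ± 20.1 against 4.53 ± 2.42 CPM, and Cxcr6, a chemokine receptor of resident lymphocytes, 561 ± 87.1 against 80.6 ± 25.2 CPM. In the tissue residency list 10 of 14 tested genes were higher, among them Cd69, Itgae, Cd44, S100a4, S100a6, Ccr2 and Gpr183. The integrin genes Itga1 and Itgb1 were the 2 lower genes. In the unconventional alpha-beta T cell list 5 of 9 were higher and 3 lower, the 3 being Klrb1c, Klrb1a and Ly6c2. The type 3 innate list had 7 higher and 5 lower of 13, and the type 2 list, which holds Il17rb, 5 higher and 5 lower of 13. In the gamma-delta list 6 of 9 tested genes were higher and 1 lower, Trdv4. Tcrg-C1 of that list was 139 ± 33.3 against 6.32 ± 3.73 CPM. Cd40lg, which the gate did not use, was 292 ± 37.0 against 53.8 ± 13.2 CPM (log2 difference 2.49 ± 0.12; edgeR, adjusted p = 2.78e-06). The CD4 lineage list, which holds Cd40lg, was split here, with 2 of 6 tested genes higher and 2 lower, Cd5 and Cd6.

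Lower in the gated cells were genes of type 1, cytotoxic and naive lymphocytes. All 10 tested genes of the natural killer list were lower, as were 11 of 12 of the type 1 list and 9 of 11 of the naive list, and Cxcr3 and Il7r were the single genes higher in the last 2 lists. Ccl5, a chemokine of cytotoxic cells, was 155 ± 186 against 3160 ± 670 CPM, and Cd8b1 18.9 ± 14.3 against 277 ± 41.3 CPM. The Il23r-negative gate holds a mixture of lymphocytes, with Cd8b1 detected in 42.7% and Cd4 in 35.0% of its cells, so each difference is against that mixture. Markers of other cell types moved in the same direction: 11 of 16 tested myeloid genes, 4 of 6 B and plasma cell genes and 5 of 8 endothelial genes were called lower in the gated cells. The myeloid genes summed to 391 to 5376 CPM in the gated cells and to 2061 to 4694 CPM in the Il23r-negative cells. Cells with a UMI of a B cell, myeloid or non-blood marker were also left out of both gates. Of the named endothelial genes, Egfl7 and Cldn5 then changed sign and were not called (log2 differences 0.13 and 0.082, edgeR adjusted p = 0.826 and 0.887). Beyond that, the part of these markers in the lower calls was not tested.

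Beside cells that met the gate but carried Trdc, the delta chain constant region, with or without interleukin 17, the gated cells were lower in gamma-delta genes and higher in most tested genes of the CD4 lineage list. Of 10167 genes tested, 1078 were called (10.6%), 502 higher (4.94%) and 576 lower (5.67%) in the gated cells. The gamma-delta list had 9 of 10 tested genes lower: Cd163l1, a scavenger receptor family gene of gamma-delta T cells, was 18.1 ± 16.8 against 2016 ± 303 CPM, and Sox13, a transcription factor of those cells, 10.4 ± 4.38 against 125 ± 30.1 CPM. Cd28, the costimulatory receptor, was 347 ± 68.6 against 16.6 ± 10.6 CPM, Lck, the receptor-proximal kinase, 240 ± 31.3 against 17.7 ± 14.2 CPM, and Cd40lg 292 ± 37.0 against 30.3 ± 15.3 CPM, each higher in 6 of 6 libraries. The alpha-beta receptor complex list, which holds Lck, was split, with 4 of 11 tested genes higher and 5 lower, Cd3e, Cd3g, Cd247, Zap70 and Lat. In the CD4 lineage list 5 of 6 tested genes were higher and 0 lower, and in the checkpoint and costimulation list 9 of 17 were higher and 2 lower. Il17rb was likewise higher, at 68.8 ± 20.1 against 4.27 ± 4.68 CPM. Among the largest differences outside these lists, Nrxn3, a neurexin gene, was 7.85 ± 4.49 against 365 ± 202 CPM and Tdrd9, a Tudor domain gene, 2.38 ± 1.86 against 109 ± 30.0 CPM. The type 17 list had 3 of 23 tested genes higher and 10 lower, and the tissue residency list 0 of 14 higher and 8 lower. Il1r1 was lower by 0.95 ± 0.13 on the log2 scale. Zbtb16 was 734 ± 126 against 759 ± 149 CPM, a log2 difference of -0.04 ± 0.15 that was not called (edgeR, adjusted p = 0.926). The lower gamma-delta genes hold beside cells picked for Trdc, while most tested genes of that list were higher against the Il23r-negative cells.

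**Figure D4:**
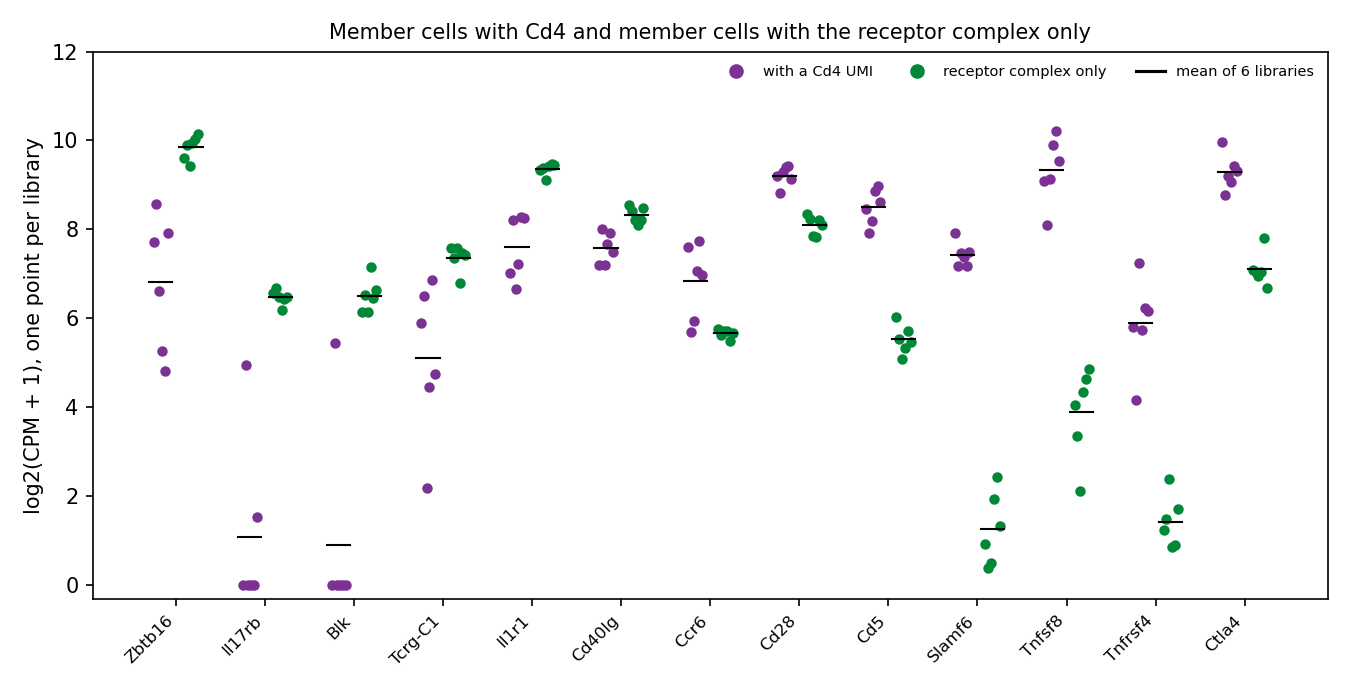
log2(CPM + 1) of 13 genes (horizontal axis) in gated cells with Cd4 and gated cells with the receptor complex only, 1 point per library and class, with the mean of 6 libraries as a black line. Zbtb16, Il17rb and Blk lie higher in the cells with the receptor complex only, and Slamf6, Tnfsf8, Tnfrsf4 and Cd5 in the cells with Cd4.

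Within the gate, cells with Cd4 and cells with the receptor complex only had different programmes. This comparison was added after the data were seen, and its Cd4 sums rest on 14, 8 and 12 cells in the p16-DTR-labelled libraries and on 26, 39 and 47 in controls. Of 8886 genes tested, 813 were called (9.15%), 380 higher (4.28%) and 433 lower (4.87%) in the cells with Cd4. The count was lower whenever a library was left out, as given in the closing section. Markers of other cell types stood apart in single sums: the B and plasma cell genes summed to 5632 and 4990 CPM in the cells with Cd4 of p16-DTR replicates 2 and 3, against 713 and 1328 CPM in the cells with the receptor complex only, and the myeloid genes to 6112 against 1110 CPM in p16-DTR replicate 2. None of the tested B and plasma cell or myeloid genes was called, Pecam1 of the endothelial list was higher (255 ± 26.1 against 170 ± 35.6 CPM), and the part of these markers in the other calls was not tested. Zbtb16 was 165 ± 137 CPM in the cells with Cd4 and 931 ± 170 CPM in the others (log2 difference -2.84 ± 0.50; edgeR, adjusted p = 0.00836). Zbtb16 UMIs were found in 26.7% and 98.0% of the cells of these classes, and Il17rb UMIs in 2.05% and 54.8%. Il1r1 was 214 ± 98.6 against 659 ± 56.2 CPM, and Ret, a receptor tyrosine kinase, 4.42 ± 8.31 against 198 ± 75.2 CPM. In the type 17 list 11 of 23 tested genes were lower and 2 higher in the cells with Cd4, the 2 being Ccr6 (129 ± 66.1 against 49.8 ± 3.22 CPM) and Hif1a (354 ± 121 against 108 ± 18.6 CPM). In the gamma-delta list 5 of 7 tested genes were lower and 0 higher in the cells with Cd4.

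The cells with Cd4 were higher in Slamf6, Tnfsf8, Tnfrsf4, Ctla4 and Cd5, which belong to several of the lists. Slamf6, a signalling receptor, was 175 ± 35.9 against 1.74 ± 1.61 CPM, Tnfsf8, the CD30 ligand, 712 ± 325 against 16.5 ± 9.14 CPM, and Tnfrsf4, the costimulatory receptor OX40, 69.9 ± 44.2 against 1.89 ± 1.26 CPM, each higher in 6 of 6 libraries. Ctla4, an inhibitory receptor, was 645 ± 191 against 140 ± 41.6 CPM, and Cd5, a modulator of receptor signalling, 374 ± 100 against 46.0 ± 10.8 CPM. The regulatory T cell list had 3 of 9 tested genes higher and 3 lower, the checkpoint and costimulation list 6 of 16 higher and 3 lower, and the CD4 lineage list 3 of 5 higher and Cd40lg lower. In the follicular helper list 5 of 7 tested genes were higher and 0 lower, and in the cell cycle list 3 of 6 were higher and 0 lower. Mki67, a proliferation gene, was detected in 24.0% of the cells with Cd4 and in 2.25% of the others. Cd40lg went the other way, at 195 ± 46.3 against 322 ± 40.0 CPM (edgeR, adjusted p = 0.0229), so the marker was not carried by the cells with Cd4 alone. Median depth was 18401 UMIs in the cells with Cd4 and 15776 in the others.

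**Figure D5:**
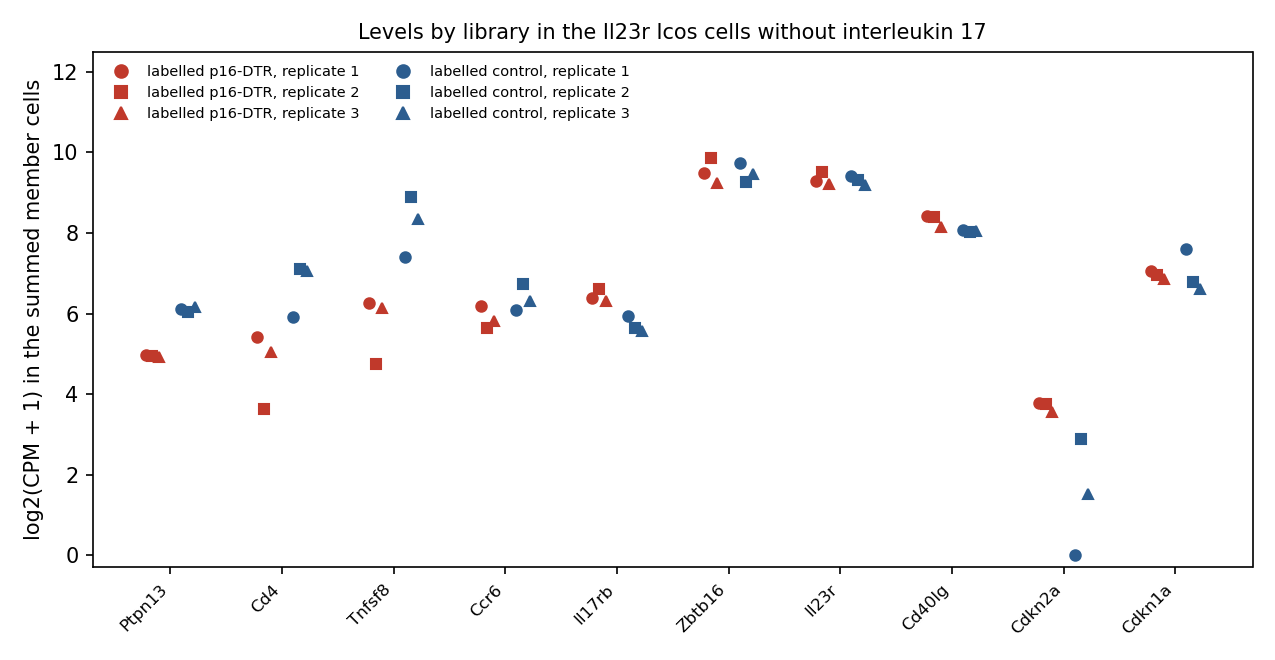
log2(CPM + 1) in the summed gated cells (vertical axis) for 10 genes (horizontal axis), 1 point per library. Ptpn13 separates the groups with little spread, while the levels of Zbtb16 and Il23r overlap between the groups.

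Between the groups, the gated cells differed in 1 called gene. Of 11312 genes tested, 0 were called higher (0%) and 1 lower (0.00884%), and 1057 had an unadjusted p under 0.05 (9.34%). DESeq2 called 128, with 43 higher and 85 lower. Ptpn13, a protein tyrosine phosphatase, was 30.5, 29.8 and 29.2 CPM in the p16-DTR-labelled libraries and 68.8, 64.2 and 71.1 CPM in controls (log2 difference -1.20 ± 0.10; edgeR, adjusted p = 0.0400). The libraries of each group lay close together and the groups did not overlap. Groups that do not overlap, whatever the spread within them, were found for 1775 of the genes tested (15.7%). The call did not hold in cells without Cd4, where the log2 difference was -0.86 (edgeR, adjusted p = 0.461), and it was lost without any 1 of the libraries except control replicate 2. In the cells with the receptor complex only, Ptpn13 was 28.7, 28.9 and 21.4 CPM against 37.2, 47.7 and 44.5 CPM.

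The other genes described between the groups were not called. Tnfsf8 was 75.4, 25.9 and 69.2 CPM in the p16-DTR-labelled libraries and 167, 470 and 322 CPM in controls, and Cd4 was 41.8, 11.3 and 32.1 against 59.1, 138 and 133 CPM. The groups did not overlap for either gene, and the share of cells with Cd4 given above was lower in the same libraries. In the cells with the receptor complex only, Tnfsf8 was 15.5, 9.16 and 3.38 CPM against 19.2, 23.8 and 27.9 CPM. Il17rb was 83.3, 95.9 and 78.7 against 60.1, 48.9 and 46.1 CPM (log2 difference 0.72 ± 0.14; edgeR, adjusted p = 0.216). The level of Zbtb16 was 746 ± 161 against 722 ± 116 CPM, while cells with a Zbtb16 UMI made up 90.3%, 95.5% and 92.1% of the gated cells in the p16-DTR-labelled libraries and 84.1%, 67.9% and 72.7% in controls, which did not overlap (exact two-sided permutation p = 0.1, the smallest possible; 81.2% against 60.1% on average when thinned to 3000 UMIs). The share of cells with Cd4, few of which held a Zbtb16 UMI, differed between the same libraries. In the cells with the receptor complex only, Zbtb16 was 782, 951 and 683 CPM against 985, 1051 and 1137 CPM, the opposite direction, and Il17rb was 94.4, 102 and 88.7 against 72.4, 85.7 and 88.9 CPM, which overlapped. Cdkn1a, the p21 cell cycle inhibitor, was 123 ± 8.39 against 133 ± 53.1 CPM (SD, n = 3 each). None of the 27 gene lists held a called gene in this comparison.

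The group differences of the gated cells were also compared with those of the Il23r-negative cells of the same mice. Of 13478 genes tested for that interaction, 0 were called by edgeR (0%), 798 had an unadjusted p under 0.05 (5.92%), and DESeq2 called 15. On simulated counts the same test recovered 35% of 2-fold and 74% of 4-fold interactions, so differences of moderate size could be missed. The simulated spread followed the expression level alone, so larger differences in genes that vary more between mice could be missed too.

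Markers of other cell types were detected in the summed cells. Lyz2, a myeloid gene, was found in 47.5% of the gated cells and in 48.4% of B cells, which is read as background. The 16 myeloid genes summed to 1288 to 5082 CPM in the p16-DTR-labelled libraries and 391 to 5376 CPM in controls, the 8 epithelial genes to 117 to 168 and 147 to 2269 CPM, and the 10 B and plasma cell genes to 660 to 1463 and 393 to 2042 CPM. These ranges overlapped between the groups. The 8 endothelial genes summed to 691 to 887 against 422 to 660 CPM, and the 10 gamma-delta T cell genes to 551 to 621 against 388 to 496 CPM, and neither pair of ranges overlapped. Among single genes tested between the groups, 15.7% did not overlap either, so these sums are not read as a result. In the cells with the receptor complex only, the gamma-delta sums were 605 to 687 against 567 to 645 CPM and overlapped. The 7 fibroblast genes summed to 247 to 1374 against 492 to 1080 CPM in the gated cells, which overlapped. In the cells with the receptor complex only they summed to 169 to 514 against 836 to 1007 CPM, which did not. Cells with a UMI of a B cell, myeloid or non-blood marker, Cdh5 of endothelium among them, were also left out together. That kept 60, 88 and 65 gated cells in the p16-DTR-labelled libraries and 50, 46 and 58 in controls. In those cells 19 genes were called, Ptpn13 among them. The step does not single out the endothelial genes, and their part in the group comparison was not tested. Nor was that of the fibroblast or gamma-delta genes.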

How the data were processed

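Per the submitters' processing notes, the reads of the 6 libraries (10x GEM-X 3′ chemistry) were processed with Cell Ranger 8.0.1 on mm10. The deposited matrices hold raw UMI counts for 31054 features, and 31011 of their identifiers match GENCODE M21. The members, lists and tests were chosen with earlier results of these data known. Counts were summed per library and gate, since cells are not replicates, and tested with edgeR 4.0.16 (quasi-likelihood test, filterByExpr, TMM, Benjamini-Hochberg, threshold 0.05), with the mouse as a block between gates. Gate genes were not counted as calls, nor were receptor and coreceptor genes where these defined the classes. SEs are the log2 difference over the square root of F. CPM are counts scaled to 1000000 UMIs of the summed cells, without TMM. Shares were compared by exact two-sided permutation tests over libraries. Predicted doublets (2 simulated per cell, 30 components, 50 neighbours, 0.4% per 1000 barcodes) were kept in the main results. B cells (Cd79a at least 2, Cd79b at least 1, Cd3e 0), a class set after the data were seen, gave the background of detection. A limit beside a count of 0 is 3 counts of the total and, like every share of cells, covers counting error only. Replicates differed by more than sampling noise (chi-square per degree of freedom 4.19 to 8.20). Nothing in the labels beyond 1 mouse per sample describes batches, so none was modelled. Named genes were the gate genes, Cd40lg, Cdkn2a, Cdkn1a and tdTomato, up to 20 called genes per comparison with the largest change at 50 CPM or more and 1 direction in all libraries, and up to 4 called genes per list, and some items are not reported here. Others (Trav1, Trav11, Zbtb16, Tcrg-C1, Mki67 and genes shown beside them) were named after their values were seen. Alternatives covered scaling, DESeq2 1.42.0, the count filter, each library left out, stricter cells (2000 UMIs, 5% mitochondrial), doublets, receptor-positive cells, cells without other lineages, at least 2 UMIs of Il23r and thinning to 3000 or 5000 UMIs. Cells without Cd4 or with Zbtb16, and the comparison within the gate, were added after seeing the data. On simulated counts with 200 changed genes, the test between groups recovered 39% of 2-fold and 87% of 4-fold changes. The simulated spread followed the expression level alone and left out spread particular to single genes. Those shares are therefore not the recovery in the data. There, Ccl5 at a log2 difference of 3.51 and Tnfsf8 at -2.51 were not called between groups (edgeR, adjusted p = 0.298 and 0.233).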

Additional observations from a re-analysis of the deposited data

Results flagged for a closer look

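For 3 of 325 genes followed in 4 comparisons between gates, the difference between gates pointed one way in every library of one group and the other way in every library of the other, and that difference was not tested gene by gene. Runx3, a transcription factor of cytotoxic lineages, was lower in the gated cells than in their interleukin 17-positive counterpart in all 3 libraries labelled p16-DTR (mean log2 difference -0.28 ± 0.07) and higher in all 3 controls (0.18 ± 0.05), a gap of -0.46. Tcrg-C1 behaved likewise in that comparison (-0.18 ± 0.17 against 0.30 ± 0.10, a gap of -0.48). Inmt, a gene of lung fibroblasts, did so against the Trdc-positive cells (-0.69 ± 0.74 against 0.64 ± 0.37, a gap of -1.33). The interleukin 17-positive sums behind the first pair of genes hold 43, 22 and 18 cells in the p16-DTR-labelled libraries and 99, 110 and 108 in controls. Such opposite directions were found in 2 of 59 genes followed against the interleukin 17-positive cells (3.39%), beside 3.05% of all genes tested there, and in 1 of 75 against the Trdc-positive cells (1.33%), beside 2.16%, so the counts are close to or below that background. No group has 4 or more libraries, so no library was examined as an outlier.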

How the results depend on the processing

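Differences against Il23r-negative cells (3000 to 4937 called genes) and Trdc-positive cells (731 to 1305) stayed within 1.5 times the main count under every alternative run. Scaling by library size alone put 2001 of 4336 calls against Il23r-negative cells on the higher side, in place of 2181 of 4251.

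Between groups, the 1 called gene became 0 with library size alone, stricter cells, at least 2 UMIs of Il23r, cells without Cd4 or cells with Zbtb16. It became 2 without the count filter, 4 without predicted doublets, 19 without cells of other lineages and 128 with DESeq2, and ranged from 0 to 38 with a library left out (38 without control replicate 2). Against interleukin 17-positive cells, the 57 calls became 202 without the count filter, 268 with DESeq2, 256 without predicted doublets, 234 without cells of other lineages and 20 without Cd4, and ranged from 4 to 190 with a library left out. The interaction gave 15 calls with DESeq2 and 8 without cells of other lineages. Between cells with Cd4 and with the receptor complex only, leaving out a library gave 474 to 742 calls. The cause of these shifts was not tested.

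Thinned to 3000 UMIs, the interleukin 17 difference was -24.2 points, and the Cd8 difference was 1.06 points (0.862 at 5000 UMIs). The 2 smallest classes changed sign: cells with both coreceptors to -0.298 points at 3000 UMIs and, with a library left out, from -0.188 to 0.574 points, and cells with none of these genes to -0.278 with stricter cells, -0.362 at 3000 UMIs, -1.80 at 5000 UMIs and, with a library left out, from -0.257 to 0.792 points. Of the named genes called in either fit, those that changed sign were H2-Aa against interleukin 17-positive cells (3.22) and Jak2 against Il23r-negative cells (0.11) without Cd4, and Egfl7 (0.13) and Cldn5 (0.082) against Il23r-negative cells and Isg15 (-0.016) against Trdc-positive cells without cells of other lineages.

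Replicate numbers did not pair the libraries: same-numbered libraries deviated with correlations of -0.172, -0.198 and -0.240. With the replicate block, 0 genes were called between groups.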
